A study of Mus musculus with 4 samples.

Results

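Gpr37l1, Gpr37, Psap and Psapl1 are 2 related receptor genes, the gene of their proposed ligand and that gene's paralog. They were picked by symbol and not by a rule on measured values, though earlier results of these data were known. All 4 were found among the 32285 genes of the count tables. The tables come from single-nucleus RNA sequencing of the dorsal horn of the mouse spinal cord, the layer that receives pain and touch input from the skin. The 4 libraries, 1 per group, are Gpr37l1-/- (KO) and Gpr37l1+/+ (WT) cord taken 1 day after spared nerve injury (SNI), in which branches of the sciatic nerve are cut and another is left intact, and KO and WT naive cord. The labels describe the knockout as -/- and name no Cre line or promoter. The labels state neither the age and sex of the mice nor how many animals each library pools. With 1 library per group no difference between groups could be tested, and every interval below is a 95% interval for counting error alone.

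GPR37 and GPR37L1 are class A G protein-coupled receptors whose closest relatives are the endothelin and bombesin receptors. GPR37L1 is known as an astrocyte receptor, and GPR37, a substrate of the ubiquitin ligase parkin, is known from myelinating oligodendrocytes and some neurons. Prosaposin, the product of Psap, is cut in lysosomes into saposins, small proteins that present sphingolipids to their hydrolases. It is also secreted, and it and peptides made from it have been proposed as ligands of both receptors. Psapl1 encodes a prosaposin-like protein.

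The treatment tag of 2 libraries contradicts their titles. It names SNI for the library titled KO naive and a naive state for the one titled WT SNI. Groups were taken from the titles, and the library names give the same state. By the tags both KO libraries would come from injured mice and both WT libraries from naive ones, and the effects of genotype and injury could then not be told apart. The label of the KO SNI library also names total RNA as its molecule, where the other 3 name polyA RNA. Libraries held 28019 (KO SNI), 27233 (WT SNI), 37552 (KO naive) and 19942 (WT naive) barcodes, with 35197290 to 69572640 unique molecular identifiers (UMIs, counts of single RNA molecules) each. After filtering, 101433 nuclei were kept. Pairs of libraries shared 162 to 293 barcodes, 0.731% to 1.05% of the smaller library.

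Nuclei were clustered without the 4 genes, and clusters were named "-like" from marker lists. Astrocyte-like nuclei numbered 1875 (KO SNI), 1303 (WT SNI), 1193 (KO naive) and 953 (WT naive), and their summed markers stood 16.3-fold to 33.4-fold above those of all other nuclei. Oligodendrocyte-like nuclei numbered 4741, 4094, 6253 and 4580 in the same order of libraries. Oligodendrocyte precursor (OPC)-like, committed OPC-like, microglia-like, excitatory neuron-like and inhibitory neuron-like nuclei were also named. A small ependymal-like class, with 78 (KO SNI), 139 (WT SNI), 126 (KO naive) and 43 (WT naive) nuclei, was too small to enter the comparisons of the other 7. Clusters with mixed markers stayed unnamed. The unnamed clusters held 8209, 11645, 14554 and 5030 nuclei. A pair of clusters stood apart by library. Cluster 2, unnamed and with mixed neuronal markers, held 193 (KO SNI), 5007 (WT SNI), 4841 (KO naive) and 94 (WT naive) nuclei. Cluster 4, oligodendrocyte-like, held 4950 of its 5186 nuclei in the KO naive library.

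In GRCm38 with GENCODE vM21, Gpr37l1 (ENSMUSG00000026424) lies on the minus strand at chr1:135160234-135167681 and has 2 exons. Gpr37 (ENSMUSG00000039904) lies on the minus strand at chr6:25665878-25690729 and also has 2 exons. Psap (ENSMUSG00000004207) lies on the plus strand at chr10:60277627-60302597, with 14 exons in its first transcript and 5 transcripts. Psapl1 (ENSMUSG00000043430) is a gene of 1 exon on the plus strand at chr5:36204021-36206568. The counts are per gene and do not separate transcripts. The 250 bases before the first start of Gpr37l1 and of Psap (RefSeq, GRCm38.p6) are shown because these are the deleted receptor and its proposed ligand. The Gpr37l1 window is chr1:135167682-135167931 on the minus strand, and the Psap window is chr10:60277378-60277627 on the plus strand. Capitals mark CCAAT on either strand.
Gpr37l1: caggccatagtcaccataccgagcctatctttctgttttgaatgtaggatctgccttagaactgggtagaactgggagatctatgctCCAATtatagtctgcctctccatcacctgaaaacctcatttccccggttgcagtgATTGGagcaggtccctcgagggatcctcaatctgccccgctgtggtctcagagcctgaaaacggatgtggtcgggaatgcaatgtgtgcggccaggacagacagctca
Psap: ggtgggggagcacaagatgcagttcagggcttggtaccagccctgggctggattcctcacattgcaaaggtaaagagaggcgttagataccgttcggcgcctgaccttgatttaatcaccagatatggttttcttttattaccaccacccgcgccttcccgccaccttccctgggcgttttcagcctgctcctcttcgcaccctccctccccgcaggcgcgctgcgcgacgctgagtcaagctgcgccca
The Gpr37l1 window held CCAAT 2 times, a motif that 33.8% of 32851 RefSeq promoter windows of this length hold. It had 52.0% GC and 7 CpG dinucleotides, near the medians of 52.4% and 6. The Psap window had 58.8% GC and 16 CpG dinucleotides. CACGTG, the core of the E-box that lysosomal transcription factors bind (6.02% of windows), AACAAT, a core of SOX sites (9.42%), and TATAAA (12.4%) were in neither window, and CCAAT was not in the Psap window. The window of Gpr37 before its RefSeq start lies inside the GENCODE gene and is not shown.

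Gpr37l1 was highest in astrocyte-like nuclei of both WT libraries and nearly absent from both KO libraries. Over all kept nuclei it had 10 UMIs in KO SNI and 1097 in WT SNI, and 19 in KO naive and 426 in WT naive, which matches the genotype in all 4 labels. In astrocyte-like nuclei it had 2 UMIs in KO SNI against 205 in WT SNI, and 0 in KO naive against 132 in WT naive. As CPM (UMIs scaled to a class total of 1e+06), these are 1.26 in KO SNI, 144.9 in WT SNI, 0 in KO naive and 146.1 in WT naive. The log2 ratio of KO to WT after SNI was -6.85 (-9.91 to -4.98). In naive cord Gpr37l1 was at least 67.1-fold lower in KO, taking a floor of 3 UMIs per library for the count of 0, and the upper limit of the log2 ratio was -5.75. The few KO UMIs did not follow the WT order of classes, since OPC-like nuclei held 4 of the 10 in KO SNI and 3 of the 19 in KO naive.

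In the WT libraries OPC-like nuclei came second, at 70.9 CPM after SNI and 83.7 CPM in naive cord. Astrocyte-like nuclei stood above them by a log2 ratio of 1.03 (0.51 to 1.58) after SNI and of 0.80 (0.23 to 1.42) in naive cord. Committed OPC-like nuclei were at 36.7 CPM in WT SNI (6 UMIs) and 83.1 CPM in WT naive (9 UMIs), within counting error of OPC-like nuclei in both. Astrocyte-like nuclei stood above them beyond counting error in WT SNI (1.98, 0.83 to 3.44) but not in WT naive (0.81, -0.15 to 1.97). Oligodendrocyte-like nuclei had 26.7 CPM in WT SNI and 17.9 CPM in WT naive. Microglia-like nuclei followed at 26.2 CPM in WT SNI and 14.3 CPM in WT naive, and neighbours from there down did not differ beyond counting error. Excitatory neuron-like nuclei had 19.7 CPM in WT SNI and 8.44 CPM in WT naive. Inhibitory neuron-like nuclei were lowest, with 17.6 CPM in WT SNI and 8.09 CPM in WT naive. Astrocyte-like nuclei thus stood 7.34-fold (WT SNI) and 17.3-fold (WT naive) above excitatory neuron-like nuclei.

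Between the WT libraries the astrocyte-like level of Gpr37l1 was the same within counting error, while levels in oligodendrocyte-like and neuron-like nuclei were higher after SNI. The log2 ratio of WT SNI to WT naive was -0.01 (-0.33 to 0.32) in astrocyte-like nuclei and -0.24 (-0.97 to 0.50) in OPC-like nuclei. It was 0.57 (0.13 to 1.03) in oligodendrocyte-like nuclei, 1.23 (0.76 to 1.71) in excitatory neuron-like nuclei and 1.12 (0.54 to 1.73) in inhibitory neuron-like nuclei. Astrocyte markers moved the same way in excitatory neuron-like nuclei, where they summed to 188.8 CPM in WT SNI and 134.8 CPM in WT naive, against 4271 and 4416 CPM in astrocyte-like nuclei of WT SNI and WT naive. The part of free RNA in this difference was not tested.

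The distribution of Gpr37l1 over classes was also set against that of astrocyte markers. Per 1000 astrocyte-marker UMIs, Gpr37l1 had 33.9 UMIs in astrocyte-like nuclei of WT SNI and 33.1 in those of WT naive. In OPC-like nuclei the ratio was 171.4 in WT SNI and 183.4 in WT naive. Observed Gpr37l1 UMIs there were 5.05 times (3.54 to 6.99) in WT SNI and 5.54 times (3.77 to 7.87) in WT naive what the astrocyte ratio gives. OPC-like nuclei also stood above excitatory neuron-like nuclei on this scale, by a log2 ratio of 0.71 (0.14 to 1.25) in WT SNI and 1.55 (0.86 to 2.22) in WT naive. Oligodendrocyte-like nuclei had 107.6 in WT SNI and 112.9 in WT naive, the first within counting error of the 104.6 in excitatory neuron-like nuclei and the second above their 62.6. The measure of Gpr37l1 in neuron-like, microglia-like and oligodendrocyte-like nuclei is thus 1.89 to 3.71 times the count that the astrocyte ratio gives. Free RNA was not measured, and its part in these counts was not tested.

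Fewer than 1 in 3 nuclei with a Gpr37l1 UMI were astrocyte-like. They made up 183 of 1048 such nuclei in WT SNI (17.5%, Clopper-Pearson interval 15.2% to 19.9%) and 117 of 401 in WT naive (29.2%, 24.8% to 33.9%). Unnamed clusters held 46.2% of them in WT SNI and 20.7% in WT naive. Excitatory neuron-like nuclei, a far larger class, held 12.5% in WT SNI and 13.0% in WT naive. Of all kept nuclei, 5.34% (WT SNI) and 5.36% (WT naive) were astrocyte-like, 47.7% and 28.3% unnamed, and 16.1% and 22.6% excitatory neuron-like. Of 13 astrocyte genes set beside Gpr37l1, 8 had named the astrocyte-like class, so their shares in it are high by construction. Sox9, a glial transcription factor that named no class, had the highest share of the other 5, at 25.4% in WT SNI and 45.9% in WT naive. S100b, a calcium-binding protein that oligodendrocytes also make, had the lowest, at 5.29% in WT SNI and 6.88% in WT naive.

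**Figure D1:**
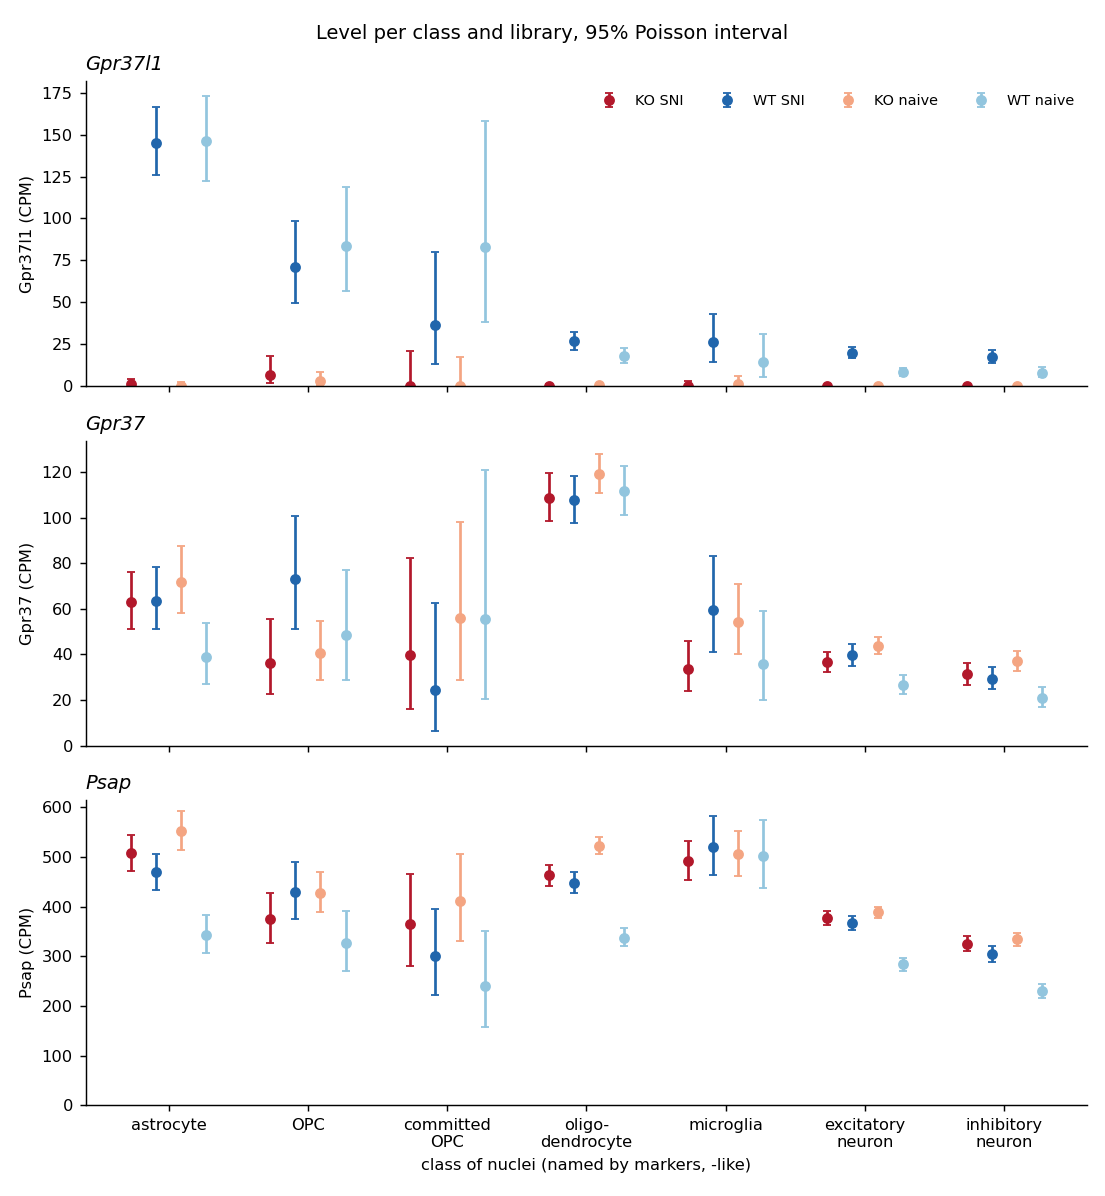
CPM of Gpr37l1, Gpr37 and Psap (rows) in each named class (x axis) and library (colours), with 95% Poisson intervals. Gpr37l1 is near 0 in both KO libraries and reaches 144.9 CPM (WT SNI) and 146.1 CPM (WT naive) in astrocyte-like nuclei, Gpr37 peaks in oligodendrocyte-like nuclei, and Psap is spread over all classes and lowest in most classes of the WT naive library.

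**Figure D2:**
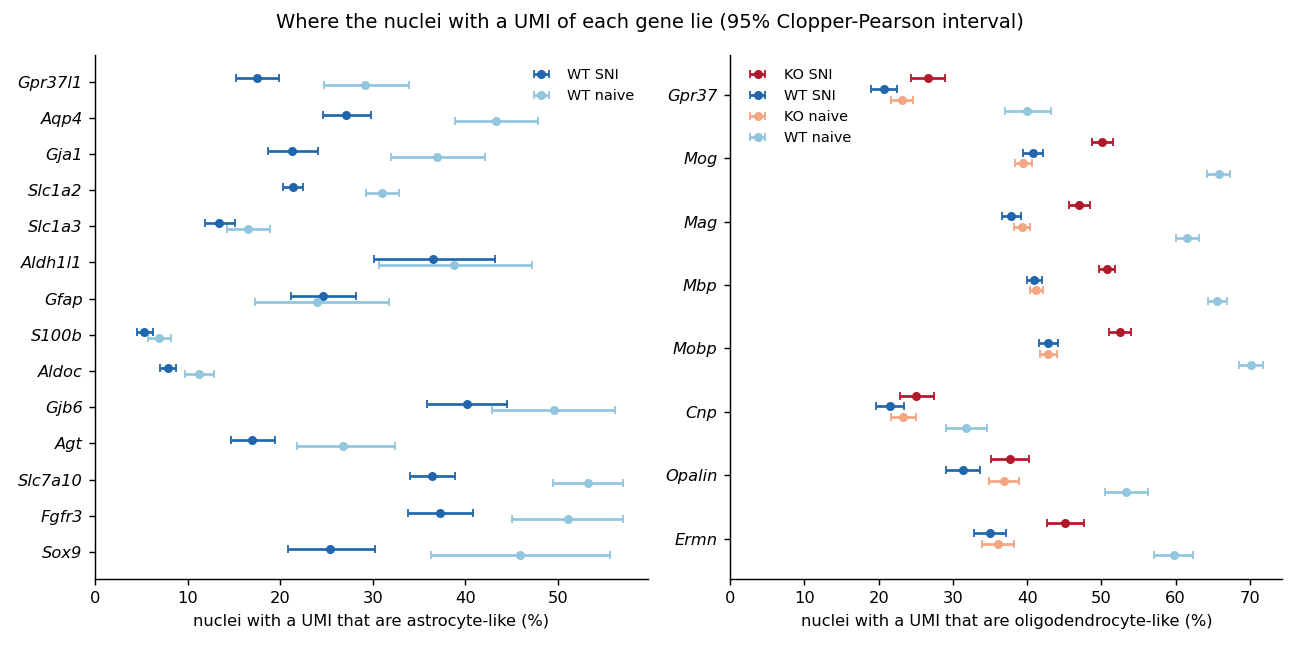
Share of the nuclei with a UMI of each gene that are astrocyte-like (left, Gpr37l1 and 13 astrocyte genes, WT libraries) or oligodendrocyte-like (right, Gpr37 and 7 of the 8 myelin genes, all libraries), in percent with 95% Clopper-Pearson intervals. Gpr37l1 is at 17.5% (WT SNI) and 29.2% (WT naive) and Gpr37 at 20.7% to 40.04%, while the myelin genes and 8 of the astrocyte genes named the class and are high in it by construction.

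Thinned to 1000 UMIs per nucleus, Gpr37l1 was found in 1 of 378 astrocyte-like nuclei in KO SNI (0.265%) and 96 of 733 in WT SNI (13.1%). In naive cord it was found in 0 of 808 in KO, which by a floor of 3 counts allows a share of nuclei with a UMI at this depth of up to 0.371%, and in 41 of 370 in WT (11.1%). Before thinning the shares were 0.107% (KO SNI), 14.0% (WT SNI), 0% (KO naive) and 12.3% (WT naive), at median depths of 805, 1040, 1119 and 922 UMIs. In excitatory neuron-like nuclei thinned alike, the share was 0 of 4212 in KO SNI, 2.18% in WT SNI, 0.0481% in KO naive and 0.837% in WT naive. Before thinning, their median depths were 1236, 1573, 1649 and 1428 UMIs.

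Gpr37 was highest in oligodendrocyte-like nuclei of all 4 libraries, and its level there was nearly the same in each. It had 108.6 CPM in KO SNI, 107.5 CPM in WT SNI, 119.0 CPM in KO naive and 111.4 CPM in WT naive, from 430, 431, 776 and 435 UMIs. The log2 ratio of KO to WT was 0.01 (-0.18 to 0.21) after SNI and 0.09 (-0.08 to 0.27) in naive cord. Neither difference exceeded counting error over the whole class. In the deeper nuclei, with at least 500 genes and 1000 UMIs, the naive ratio was 0.28 (-0.01 to 0.57), also within counting error. Across injury the log2 ratio of SNI to naive was -0.13 in KO and -0.05 (-0.25 to 0.14) in WT. Among the 3 oligodendrocyte-like clusters, cluster 1 had 115.4, 121.1, 95.01 and 124.1 CPM in KO SNI, WT SNI, KO naive and WT naive. Cluster 6, the one spread most evenly over libraries, had 97.5, 83.5, 109.4 and 84.8 CPM in the same order. In cluster 6 alone, a choice made after seeing the data, the log2 ratio of KO to WT was 0.22 (-0.15 to 0.60) after SNI. In naive cord it was 0.37 (-0.003 to 0.74), and both intervals hold 0. Cluster 4, nearly all from the KO naive library, had 124.0 CPM there.

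Gpr37 was detected in all other named classes at lower levels. Astrocyte-like nuclei had 62.8 CPM in KO SNI, 63.6 CPM in WT SNI, 71.8 CPM in KO naive and 38.7 CPM in WT naive. Oligodendrocyte-like nuclei stood 1.73-fold, 1.69-fold, 1.66-fold and 2.88-fold above them in these libraries. OPC-like nuclei had 36.4 CPM in KO SNI, 72.9 CPM in WT SNI, 40.4 CPM in KO naive and 48.6 CPM in WT naive. Microglia-like nuclei ranged between 33.7 and 59.4 CPM, and committed OPC-like nuclei between 24.5 and 56.1 CPM on 4 to 12 UMIs. Excitatory neuron-like nuclei had 36.5, 39.6, 43.9 and 26.6 CPM, and inhibitory neuron-like nuclei 31.3, 29.3, 37.0 and 21.1 CPM, in KO SNI, WT SNI, KO naive and WT naive. Oligodendrocyte-like nuclei stood above the next class beyond counting error in 3 of 4 libraries. The exception was WT naive, where committed OPC-like nuclei came next on 6 UMIs.

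In astrocyte-like and neuron-like nuclei, Gpr37 kept close to 1 ratio to the oligodendrocyte markers within a library. Per 1000 oligodendrocyte-marker UMIs it had 44.6 UMIs in astrocyte-like nuclei of KO SNI, 46.8 in those of WT SNI, 38.9 in those of KO naive and 29.2 in those of WT naive. In excitatory neuron-like nuclei the ratios were 43.0 (KO SNI), 45.5 (WT SNI), 41.1 (KO naive) and 30.6 (WT naive), and in inhibitory neuron-like nuclei 43.5, 39.4, 38.9 and 29.5. The log2 difference between astrocyte-like and excitatory neuron-like nuclei ran from -0.08 to 0.05 over the 4 libraries, and all 4 intervals hold 0. Oligodendrocyte-like nuclei themselves had 11.6, 12.2, 15.6 and 11.4 in KO SNI, WT SNI, KO naive and WT naive. The astrocyte-like and neuron-like ratios are thus 2.48 to 3.84 times the oligodendrocyte-like one. Committed OPC-like nuclei, which already make myelin transcripts, were below the oligodendrocyte-like ratio in all 4 libraries, at 0.360 to 0.787 times it, but the interval lay wholly under 1 in WT SNI alone (0.098 to 0.921). Cluster 2 of WT SNI lay below excitatory neuron-like nuclei, with a log2 ratio of -0.49 (-0.71 to -0.27). Ependymal-like nuclei lay below them too in KO SNI (-2.79, -8.10 to -0.30, on 1 UMI) and KO naive (-1.06, -2.28 to -0.07, on 8 UMIs). How much Gpr37 in the other classes comes from free RNA was not tested.

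**Figure D3:**
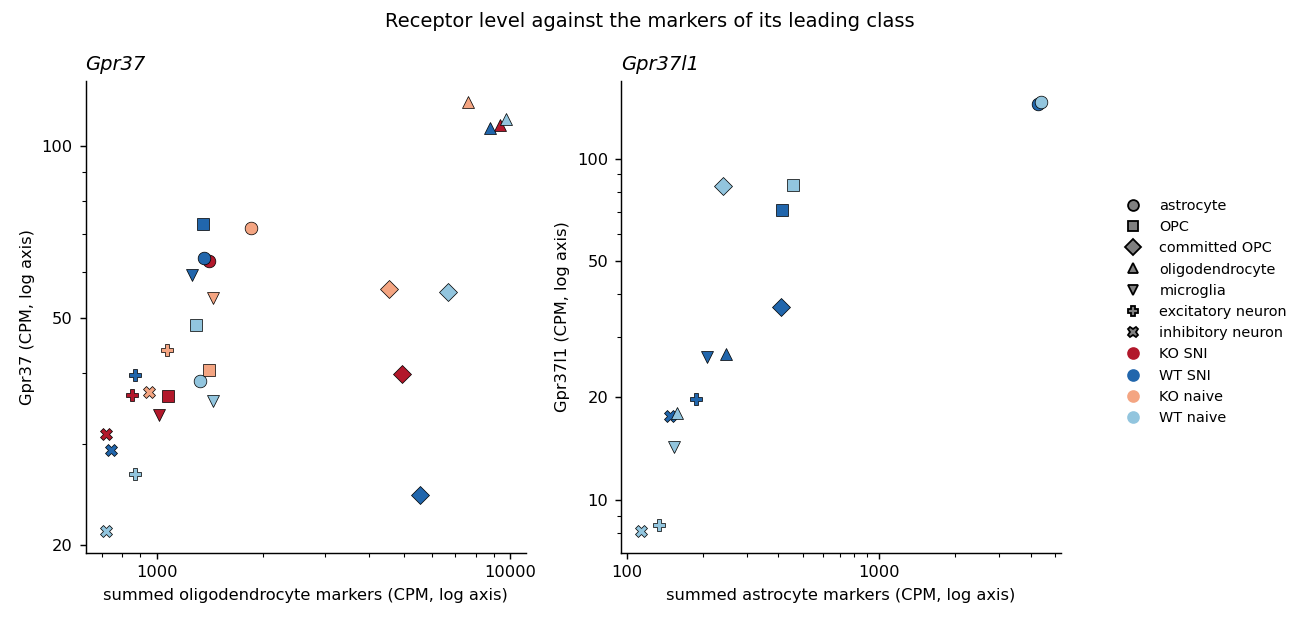
Gpr37 against summed oligodendrocyte markers (left, 4 libraries) and Gpr37l1 against summed astrocyte markers (right, WT libraries), in CPM on log axes, with 1 point per class (symbol) and library (colour). Astrocyte-like, neuron-like and microglia-like points of Gpr37 lie in 1 band, committed OPC-like points lie to its right, and OPC-like points of Gpr37l1 lie above the neuron-like and oligodendrocyte-like ones.

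In astrocyte-like nuclei Gpr37 was level between genotypes after SNI and higher in KO than in WT in naive cord. There were 100 UMIs in KO SNI and 90 in WT SNI, with a log2 ratio of -0.02 (-0.44 to 0.41). Naive cord gave 99 UMIs in KO and 35 in WT, with a log2 ratio of 0.89 (0.32 to 1.49). Of 7235 genes with at least 50 UMIs over this naive pair, 17.5% were past 1.5-fold higher in KO in astrocyte-like nuclei. With each nucleus named from its own marker UMIs, the log2 ratio of Gpr37 was -1.21 (-2.50 to 0.001) after SNI, from 10 UMIs in KO and 17 in WT. In naive cord it was then 0.073 (-1.98 to 2.05), from 5 UMIs in KO and 6 in WT. Neuron-like nuclei gave naive ratios of like size. The ratio was 0.72 (0.47 to 0.98) in excitatory neuron-like nuclei, 0.81 (0.47 to 1.16) in inhibitory neuron-like nuclei and 0.60 (-0.25 to 1.53) in microglia-like nuclei. Expressed as SNI to naive within WT, the log2 ratio was 0.72 (0.14 to 1.32) in astrocyte-like nuclei and 0.58 (0.29 to 0.86) in excitatory neuron-like nuclei. Within KO it was -0.19 in astrocyte-like nuclei and -0.27 (-0.48 to -0.06) in excitatory neuron-like nuclei. These comparisons share libraries, and the WT naive library is the low one in each compared class outside the oligodendrocyte lineage except microglia-like nuclei, where KO SNI is lower. After SNI, OPC-like nuclei had 21 UMIs in KO and 37 in WT (-1.00, -1.85 to -0.19), and microglia-like nuclei 41 in KO and 34 in WT, which is 33.7 CPM in KO and 59.4 CPM in WT (-0.82, -1.51 to -0.12). In naive cord the OPC-like ratio was -0.27 (-1.10 to 0.62).

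Other measures of the astrocyte-like nuclei also differed between libraries. Oligodendrocyte markers in astrocyte-like nuclei summed to 1408 CPM in KO SNI, 1359 in WT SNI, 1847 in KO naive and 1325 in WT naive. General neuron markers added up to 2090, 1994, 4128 and 1294 CPM there. The nuclear RNA Malat1 took 7.94%, 10.5%, 5.93% and 12.8% of their UMIs. WT naive thus had the most Malat1 and the lowest oligodendrocyte and neuron markers, and KO naive the reverse. Microglia markers did not follow this order, at 701, 385, 248 and 297 CPM. The part of these measures in the Gpr37 and Psap differences was not tested.

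Nuclei with a Gpr37 UMI were oligodendrocyte-like in 392 of 1471 cases in KO SNI (26.6%), 406 of 1964 in WT SNI (20.7%), 722 of 3128 in KO naive (23.1%) and 400 of 999 in WT naive (40.04%). The class made up 18.8%, 16.8%, 18.4% and 25.7% of all kept nuclei in the same order of libraries. The shares were thus 1.42, 1.23, 1.25 and 1.56 times that of the class. All 8 myelin genes set beside Gpr37 had named the class, so no order against them is read. Thinned to 1000 UMIs, Gpr37 was found in 8.71% (KO SNI), 8.91% (WT SNI), 10.7% (KO naive) and 8.83% (WT naive) of oligodendrocyte-like nuclei. The shares were 5.56%, 6.14%, 6.68% and 2.97% in astrocyte-like nuclei, and 3.63%, 3.92%, 4.63% and 2.63% in excitatory neuron-like nuclei.

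Psap was present in every class, with no class standing far above the rest. Astrocyte-like nuclei had 507 CPM in KO SNI, 469 CPM in WT SNI, 552 CPM in KO naive and 343 CPM in WT naive, from 310 to 808 UMIs. Microglia-like nuclei had 491, 520, 506 and 502 CPM in the same order, and oligodendrocyte-like nuclei 463, 448, 523 and 338 CPM. Excitatory neuron-like nuclei had 377, 367, 389 and 284 CPM, and inhibitory neuron-like nuclei 326, 305, 334 and 231 CPM. OPC-like nuclei lay between, at 374, 430, 428 and 327 CPM. Astrocyte-like, microglia-like and oligodendrocyte-like nuclei were the top 3 of the 7 compared classes in all 4 libraries. Neighbours among these 3 did not differ beyond counting error except in WT naive, where microglia-like stood above astrocyte-like nuclei by a log2 ratio of 0.55 (0.29 to 0.81). The small ependymal-like class had 480, 335, 439 and 441 CPM on 44, 71, 71 and 21 UMIs, in KO SNI, WT SNI, KO naive and WT naive.

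Between genotypes, Psap was higher in KO than in WT in naive cord in 6 of the 7 compared classes, and near level after SNI. Many genes were higher in naive KO. Of genes with at least 50 UMIs over the naive pair, 17.5% of 7235 in astrocyte-like nuclei were past 1.5-fold higher in KO. In oligodendrocyte-like nuclei it was 17.1% of 11931. After SNI these shares were 4.97% and 3.32%. In ependymal-like nuclei Psap was at 439 CPM in KO naive and 441 CPM in WT naive. The naive log2 ratio of KO to WT was 0.69 (0.49 to 0.88) in astrocyte-like, 0.63 (0.54 to 0.72) in oligodendrocyte-like, 0.53 (0.43 to 0.64) in inhibitory neuron-like and 0.45 (0.37 to 0.53) in excitatory neuron-like nuclei. OPC-like nuclei had 0.39 (0.10 to 0.69) and committed OPC-like nuclei 0.78 (0.13 to 1.47). Microglia-like nuclei had 0.01 (-0.23 to 0.25). Their microglia markers summed to 2254 CPM in KO naive and 5394 CPM in WT naive, and their neuron markers to 11752 and 5828 CPM. The part of this difference in the microglia-like Psap ratio was not tested. After SNI the ratio was 0.11 (-0.04 to 0.26) in astrocyte-like nuclei and 0.05 in oligodendrocyte-like nuclei. The sign after SNI depends on depth: in astrocyte-like nuclei with at least 500 genes and 1000 UMIs it was -0.27, and the naive ratio there was 0.89. Malat1 and neuron markers differed between the naive libraries in oligodendrocyte-like nuclei too, with Malat1 at 5.81% in KO naive and 12.5% in WT naive, and neuron markers at 4616 CPM in KO naive and 1420 CPM in WT naive.

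Within WT, Psap was higher after SNI than in naive cord, with a log2 ratio of 0.45 (0.26 to 0.65) in astrocyte-like nuclei, 0.41 (0.30 to 0.51) in oligodendrocyte-like nuclei and 0.37 in excitatory neuron-like nuclei. Microglia-like nuclei again gave 0.05 (-0.21 to 0.31). Within KO the ratios were -0.12 (-0.27 to 0.02) in astrocyte-like nuclei, -0.17 (-0.26 to -0.09) in oligodendrocyte-like nuclei and -0.04 in excitatory neuron-like nuclei. With each library clustered on its own, the KO astrocyte-like ratio was 0.20. The WT naive library is the low one in both the genotype and the injury comparison, and they share it. Outside the named classes, Psap stood at 863 CPM in cluster 2 of KO naive against 442 CPM in cluster 2 of WT SNI. It reached 1184 CPM (KO SNI) and 873 CPM (WT SNI) in cluster 33, a cluster of 506 nuclei led by haemoglobin genes.

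**Figure D4:**
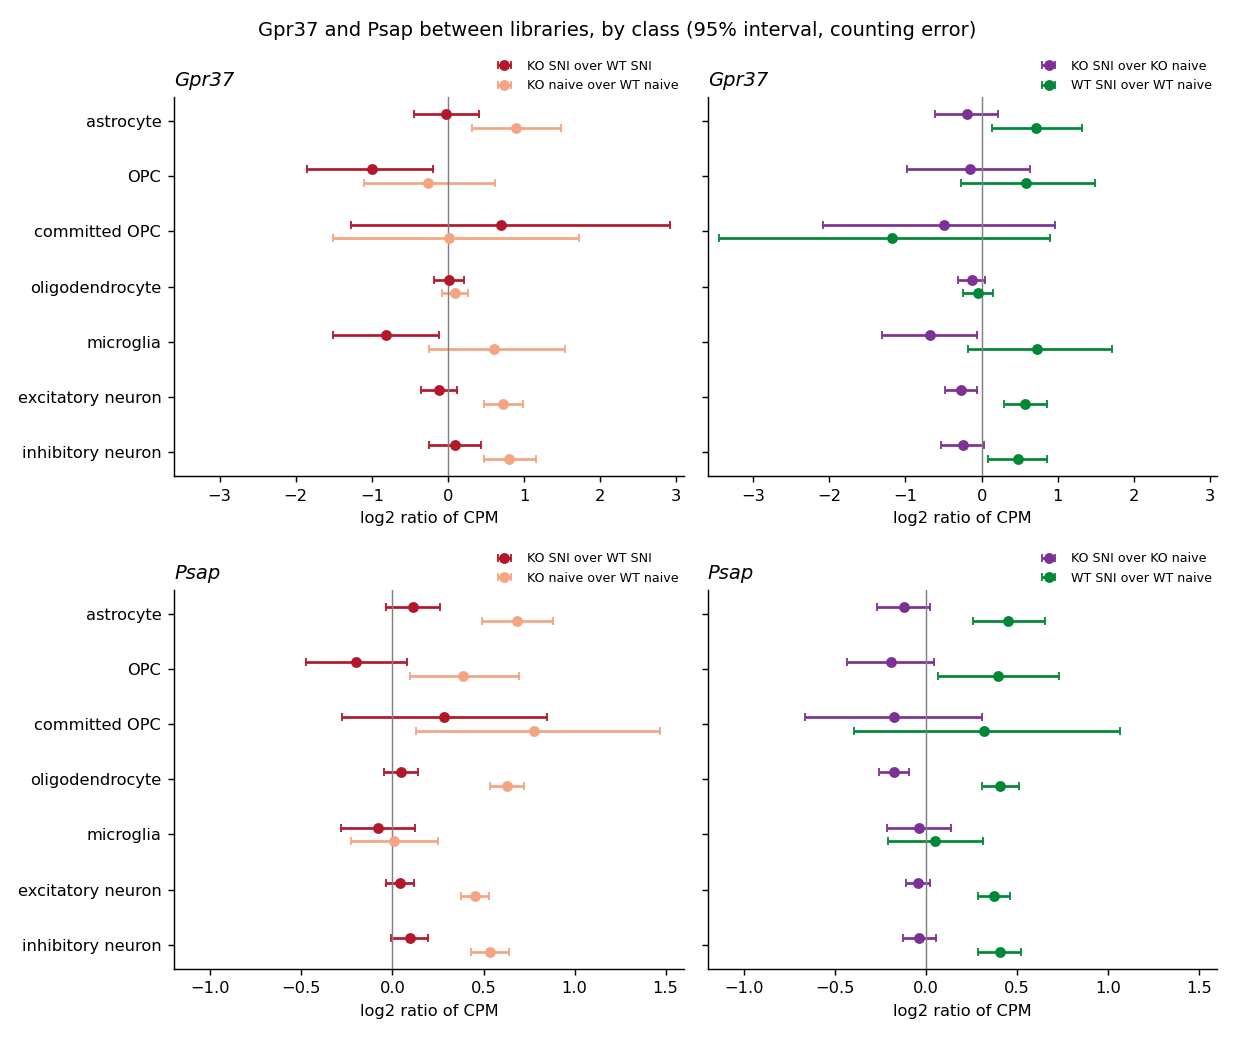
Log2 ratios of Gpr37 (top) and Psap (bottom) CPM for KO over WT (left) and SNI over naive (right) by class, with 95% intervals for counting error. Psap ratios of KO naive over WT naive are above 0 beyond counting error in the plotted classes other than microglia-like nuclei (0.69 in astrocyte-like nuclei), while KO SNI over WT SNI stays near 0. Gpr37 in oligodendrocyte-like nuclei is near 0 in every comparison.

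Psapl1 was close to absent. Over all kept nuclei it had 3 UMIs in KO SNI, 3 in WT SNI, 3 in KO naive and 1 in WT naive. None fell in astrocyte-like, OPC-like, committed OPC-like or microglia-like nuclei. Those in named classes were 1 UMI in oligodendrocyte-like and 1 in inhibitory neuron-like nuclei, both in KO SNI, and in excitatory neuron-like nuclei 1 in KO SNI, 2 in WT SNI and 2 in KO naive. No ratio between groups is given at this depth.

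In astrocyte-like and oligodendrocyte-like nuclei, detection of a receptor and of Psap in the same nucleus was close to what the separate shares give. At 1000 UMIs per nucleus, 46 of 1103 astrocyte-like nuclei of the WT libraries had both Gpr37l1 and Psap, against 45.2 from the product of the shares, a ratio of 1.02 (0.74 to 1.36). Both receptors were seen in 9 astrocyte-like nuclei against 7.11, a ratio of 1.27 (0.58 to 2.40). In WT SNI, 89 of 733 astrocyte-like nuclei had Gpr37l1 alone, 38 had Gpr37 alone, 7 had both and 599 had neither, and 221 of those with neither had a Psap UMI. In WT naive, 39 of 370 had Gpr37l1 alone, 9 had Gpr37 alone, 2 had both and 320 had neither. Among oligodendrocyte-like nuclei of WT SNI, 33 of 1448 had Gpr37l1 alone, 126 had Gpr37 alone and 3 had both. In WT naive the same counts were 17, 93 and 1 of 1065. Gpr37 and Psap were found together in 198 oligodendrocyte-like nuclei of the 4 libraries against 187.8, a ratio of 1.05 (0.91 to 1.21).

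For comparison, Gpr37l1 paired with each of 13 astrocyte genes gave ratios between 0.741 (Agt, angiotensinogen) and 1.605 (Sox9, 0.88 to 2.69). Gpr37 paired with 8 myelin genes gave 0.998 (Mog) to 1.08 (Opalin). At this depth the ratios of the receptors with Psap thus lay within the range of the ratios for known markers of 1 cell type. In excitatory neuron-like nuclei of the WT libraries, no nucleus had both receptors against 3.86 from the shares, a ratio of 0 with an upper limit of 0.957. At 2000 UMIs per nucleus it was 2 against 1.58. Gpr37 and Psap in inhibitory neuron-like nuclei gave 109 against 95.3 at 1000 UMIs, a ratio of 1.14 (0.94 to 1.38), and 54 against 75.7 at 2000 UMIs, a ratio of 0.71 (0.54 to 0.93).

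**Figure D5:**
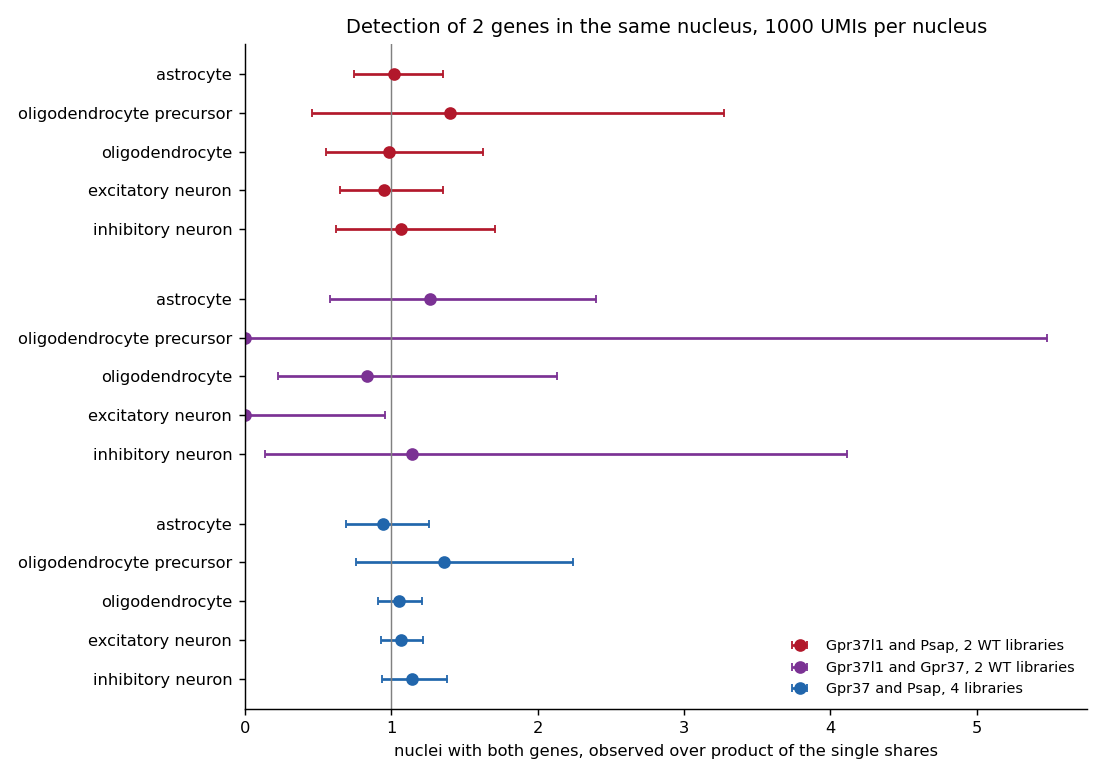
Nuclei with a UMI of both genes over the number from the product of the single shares, by class, at 1000 UMIs per nucleus, with 95% Poisson intervals of the observed count. Ratios for Gpr37l1 with Psap (1.02 in astrocyte-like nuclei) and Gpr37 with Psap (1.05 in oligodendrocyte-like nuclei) lie near 1, and intervals for pairs of the receptors are wide.

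Genes with the most similar pattern were ranked by Pearson r of log2(CPM + 1) over named classes and libraries, which share libraries and free RNA, so that r is a description only. For Gpr37l1, over 14 points of the WT libraries and 12144 genes, they included Dbx2 (0.958), Mfsd2a (0.957), Plpp3 (0.938) and Diaph3 (0.936). For Gpr37, over 28 points and 14347 genes, they were Tnfaip6 (0.922), Gsn (0.888), Gatm (0.885), Cep97 (0.883) and Car2 (0.878). For Psap they were Ywhah (0.872), Ddx3x (0.868), Nipbl (0.865), Rpn1 (0.846) and Tm9sf3 (0.846).

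The wider pathway was followed through 43 genes that sort and process prosaposin, hydrolyse the lipids that saposins present, or act in receptor signalling, and the nearest related receptors. Several had a leading class. Sort1, the sortilin receptor that carries prosaposin to lysosomes, was highest in oligodendrocyte-like nuclei of 4 of 4 libraries, at a mean of 224 CPM (201 to 255). Ctsd, the protease cathepsin D that cuts prosaposin, and Grn, the progranulin that binds it, were highest in microglia-like nuclei, at means of 256 and 61.4 CPM. The hydrolase gene Hexa was highest there too. Ptch1, the hedgehog receptor found to interact with GPR37L1 in mice, led in astrocyte-like nuclei at a mean of 620 CPM, as did the endothelin receptor Ednrb (113 CPM) and the arrestin gene Arrb1 (135 CPM). Grpr, the gastrin-releasing peptide receptor of itch circuits, led in excitatory neuron-like nuclei at 12.2 CPM. Brs3 had 0 UMIs.

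In astrocyte-like nuclei, 6 of the 34 pathway genes with at least 50 UMIs were over 1.5-fold higher and 2 over 1.5-fold lower in KO than in WT after SNI. Of all 8451 genes with that many UMIs, 4.97% were past 1.5-fold higher and 3.99% past 1.5-fold lower. The median log2 ratio was 0.20 for the lists and 0.02 for all genes. Ctsd had 266 UMIs in KO SNI and 100 in WT SNI, a log2 ratio of 1.24 (0.90 to 1.59), the highest of the lists. Grn followed at 0.91 (0.21 to 1.64), with 55 UMIs in KO SNI and 26 in WT SNI. Other genes past 1.5-fold included the receptor kinase gene Grk5 at 0.67 and the hydrolase cofactor gene Gm2a at 0.64. The kinase gene Grk2 was at -0.64 and the mannose 6-phosphate receptor gene M6pr at -0.61. Microglia markers in these nuclei summed to 701 CPM in KO SNI and 385 CPM in WT SNI. Their part in the differences of Ctsd and Grn was not tested. In oligodendrocyte-like nuclei, 4 of 38 were over 1.5-fold higher and 0 lower after SNI, against 3.32% and 3.56% of all genes. They included Grn (1.12), Ctsd (1.03) and Hexa (0.66), and microglia markers there summed to 741 CPM in KO SNI and 410 CPM in WT SNI. The median log2 ratio in these nuclei was 0.12 for the lists and -0.005 for all genes.

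In naive cord, 5 of 32 pathway genes were over 1.5-fold higher and 1 over 1.5-fold lower in KO than in WT astrocyte-like nuclei, against a background of 17.5% higher and 9.18% lower. The medians were 0.20 for the lists and 0.09 for all genes. Grk5, a G protein-coupled receptor kinase, was at 0.96 (0.31 to 1.64), the sialidase Neu1 at 0.88, the protease Ctsb at 0.81, the galactosylceramidase Galc at 0.74 and the protease Adam10 at 0.64. Grk3, another receptor kinase, was at -0.61. Among the pathway genes with at least 50 UMIs in both comparisons, Grk5 was the only one past 1.5-fold the same way in both genotype comparisons in astrocyte-like nuclei, with 0.67 (0.14 to 1.21) after SNI. Ednrb was at 0.45 after SNI and -0.57 in naive cord. In oligodendrocyte-like nuclei, 7 of 39 were past 1.5-fold higher in naive KO and 1 lower, against 17.1% and 9.39% of all genes. The shares past 1.5-fold higher are near the background of the naive comparison, and those past 1.5-fold lower are under it. The median log2 ratio in oligodendrocyte-like nuclei was 0.36 for the lists and 0.07 for all genes.

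In microglia-like nuclei, the leading class of Ctsd, Grn and Hexa, more pathway genes were lower than higher in naive KO. Of 31 pathway genes, 3 were past 1.5-fold higher and 12 past 1.5-fold lower in KO than in WT, against 19.2% and 20.7% of all genes. The median log2 ratio was -0.46 for the lists and -0.05 for all genes. Microglia markers in these nuclei summed to 2254 CPM in KO naive and 5394 CPM in WT naive, and neuron markers to 11752 CPM in KO naive and 5828 CPM in WT naive. Their part in the difference was not tested. After SNI, 4 of 31 were past 1.5-fold higher and 3 past 1.5-fold lower, against 6.88% and 11.6% of all genes.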

How the data were processed

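The authors deposited raw UMI counts for each gene in each nucleus, made with Cell Ranger 7.0.0 per the file headers. Seurat 4.3.0, R 4.3.0 and the build GRCm38 stand in the submitters' processing notes without a role. Per the labels' protocols, nuclei came from fresh dorsal horn and libraries from 10x 3' chemistry. Whether introns were counted, and how reads shared by similar genes were treated, is not given in the sources used here. Only called barcodes were used, so free RNA was not measured directly.

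Barcodes under 300 genes or with 5% or more mitochondrial UMIs, 552 of 112746, were dropped. Scrublet (scanpy 1.11.5, 10% expected) chose a threshold that marked 0% to 0.114% in 3 libraries, so nuclei above the 90th percentile of each library's score were removed instead, 9.41% to 9.96%. Clustering used 3000 variable genes without the members, pathway genes, mitochondrial genes or Malat1, with 40 components, 20 neighbours and Leiden resolution 1 (leidenalg 0.10.2). A class other than neurons needed 66.7% of its markers, and at least 3, raised 2-fold. Neuron-like clusters were named by a gap of at least 0.8 between the mean log2 ratios of the excitatory and inhibitory marker lists. At least 3 markers of the named list had to be detected in 2% of nuclei, without a 2-fold rule. Excitatory neuron-like nuclei had 4 (KO SNI), 4 (WT SNI), 3 (KO naive) and 6 (WT naive) of 7 markers raised 2-fold. Clusters with markers of a second class or high doublet scores stayed unnamed. That scoring was set after seeing the data.

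CPM use class totals without mitochondrial genes. Ratios have exact conditional binomial intervals (scipy 1.17.1), levels have exact Poisson and shares Clopper-Pearson intervals, and a count of 0, or a share of 0, is set to a floor of 3 counts per library. All intervals and floors cover counting error only. No model was tested, since each group is 1 library. Thinned shares leave out nuclei under 1000 UMIs. Pathway genes are named when past 1.5-fold the same way in both genotype comparisons, or among the highest and lowest of each list, in either case with 50 UMIs over a pair. Similar genes need 200 UMIs. Some genes that these rules name are not reported here. A few others were chosen after their values were seen. The members and lists were chosen with earlier results of these data known. The ratio and co-detection steps were tested on simulated data. TMM factors came from edgeR 4.0.16. Alternatives covered the filter, depth, doublets, resolution, clustering each library alone, naming nuclei one by one, and TMM scaling.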

Additional observations from a re-analysis of the deposited data

Results flagged for a closer look

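Gpr37 in excitatory neuron-like nuclei differed in sign between genotypes across injury: the log2 ratio of SNI to naive was -0.27 in KO and 0.58 in WT. Psap in oligodendrocyte-like nuclei did the same, at -0.17 in KO and 0.41 in WT. With 1 library per group neither difference between genotypes was tested.

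Gpr37l1 was also found in nuclei that no comparison uses. In cluster 2 it had 0 UMIs in the 193 nuclei of KO SNI, 253 UMIs or 37.3 CPM in the 5007 nuclei of WT SNI, and 4 UMIs in the 4841 nuclei of KO naive. Barcodes called doublets held 0.186 CPM in KO SNI against 32.0 CPM in WT SNI, and 0.533 CPM in KO naive against 14.3 CPM in WT naive.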

How the results depend on the processing

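No paired analysis was possible because the labels carry no replicate numbers and each group is 1 library, which also leaves no replicate to leave out. Over the alternatives, 131 values stayed within the counting error of the reported value (for counts of pathway genes, within 1.5 times it) and 56 did not. The alternatives covered genotype ratios of Gpr37l1, Gpr37 and Psap in astrocyte-like nuclei, and injury ratios of Gpr37l1 and Psap there. They also covered genotype ratios of Gpr37 in oligodendrocyte-like nuclei, shares of receptor-positive nuclei, and co-detection with Gpr37l1 and pathway counts in astrocyte-like nuclei. Of these results, none with a direction beyond counting error reversed. Other ratios between libraries, such as those in neuron-like nuclei, were not rerun. Psap ratios in astrocyte-like nuclei whose reported interval holds 0 took both signs beyond counting error. KO to WT after SNI was -0.27 (-0.53 to -0.02) with at least 500 genes and 1000 UMIs, and 0.16 (0.01 to 0.31) with doublet calls kept. SNI to naive in KO was -0.47 (-0.72 to -0.23) with at least 500 genes and 1000 UMIs, and 0.20 (0.06 to 0.33) with each library clustered alone. The cause of these shifts was not tested.

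With at least 500 genes and 1000 UMIs, the log2 ratio of KO to WT in naive cord was 0.28 (-0.01 to 0.57) for Gpr37 in oligodendrocyte-like nuclei. For Gpr37l1 in astrocyte-like nuclei, with 0 UMIs in KO and 57 in WT, the floor of 3 UMIs bounds it at -5.49. Psap in astrocyte-like nuclei gave -0.27 (KO to WT, SNI), 0.89 (KO to WT, naive), -0.47 (SNI to naive, KO) and 0.69 (SNI to naive, WT). Nuclei with Gpr37l1 were astrocyte-like in 14.9% (WT SNI) and 21.5% (WT naive), and nuclei with Gpr37 oligodendrocyte-like in 12.01%, 11.5%, 16.9% and 19.7% (KO SNI, WT SNI, KO naive, WT naive). Thinning every nucleus to 1000 UMIs gave a bound of -5.00 for Gpr37l1, from 44 UMIs in WT. For the other ratios it gave 0.31 (-0.02 to 0.65), -0.25 (-0.53 to 0.04), 0.93, -0.47 and 0.71. It gave Gpr37 shares of 14.9% (KO SNI), 15.2% (WT SNI) and 24.9% (WT naive), and 3 pathway genes past 1.5-fold after SNI in place of 8. At 500 UMIs the Gpr37l1 share was 21.3% (WT SNI) and the Gpr37 shares were 37.9%, 29.1%, 29.5% and 57.9% (KO SNI, WT SNI, KO naive, WT naive). At 2000 UMIs the co-detection ratio of both receptors in the 25 astrocyte-like WT nuclei left was 2.87.

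Naming each nucleus by its own marker UMIs, which left 84 to 245 astrocyte-like nuclei per library, gave Gpr37l1 bounds of -3.32 (SNI) and -2.25 (naive), with 0 UMIs in both KO libraries, astrocyte-like Gpr37 ratios of -1.21 (SNI) and 0.073 (naive), and a naive Psap ratio of 0.47. Shares were then 2.004% (WT SNI) and 3.74% (WT naive) for Gpr37l1, and 19.4%, 16.9%, 16.6% and 32.9% for Gpr37, with 2 (SNI) and 0 (naive) pathway genes. The naive Psap ratio was 0.48 at resolution 0.5, with 3 pathway genes after SNI, and 0.46 with each library clustered alone. With each library clustered alone, Psap after SNI in KO was at 0.20 and the Gpr37 share of KO SNI was 10.6%. That clustering left 1665 oligodendrocyte-like nuclei in KO SNI, against 4741 in the main one. Keeping doublet calls gave Gpr37 shares of 23.5%, 18.5%, 21.2% and 35.1%. In choices made after seeing the data, cluster 6 alone gave oligodendrocyte-like Gpr37 ratios of 0.22 (SNI) and 0.37 (naive), whose intervals both hold 0. Adding clusters 26 and 27, unnamed with astrocyte markers, gave a naive Psap ratio of 0.46, Gpr37l1 shares of 20.04% (WT SNI) and 34.2% (WT naive), and 4 pathway genes after SNI.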
